A study of Mus musculus with 36 samples.

Results

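The genes described here build, cap, branch or move along the 2 main filament systems of the cell. They were chosen by gene family: the actin-related protein 2/3 (Arp2/3) complex and other actin-related proteins, alpha-actinins, cofilins, profilins, capping proteins, beta-thymosins, tubulins with the gamma-tubulin complex, unconventional myosins, troponins, and the focal adhesion proteins vinculin, talin, zyxin and Lasp1. Of the 6971 genes that a single symbol names on the array, 40 belonged to these families, on 60 of the 9598 spots with 1 symbol. Spots of a gene were averaged, which applied to 13 of the 40. Tubb3, Tubb2b, Tmsb10, Tmsb4x, Myo5a, Actr3 and Lasp1 had 1 spot each, so their values could not be compared between spots. The array named 1 troponin gene, Tnnt1, by a single symbol, so troponins are represented by that gene alone, and profilins and talins were not analysed here.

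The arrays, 36 in all, were two-colour cDNA arrays of whole lung from BALB/c mice. Mice had been held at 0.5 atm for 1, 3, 7, 14 or 21 days (the hypoxia phase), or for 21 days and then returned to recover, with lungs taken at day 22, 24, 28 or 35 (1, 3, 7 or 14 days of recovery). At each of the 9 time points the lungs of 5 exposed mice and of 5 time-matched control mice were pooled separately, and 4 arrays compared the 2 pools. Values are log2 ratios; one above 0 likely means more transcript in the exposed lungs, since the protocol names the exposed sample and the red dye first; no dye swap is recorded. A ratio holds no level, so the identity of the tissue could not be checked from its markers, and in whole lung fewer cells of a type and less RNA per cell cannot be told apart. The labels do not tie the 4 arrays of a time point to different animals, so a single-day p-value measures array-to-array spread alone, and that spread may be technical.

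Between 14186 and 15042 of the 15388 spots had a value on an array, and the SD of an array's log2 ratios ran from 0.17 to 0.52, the highest being that of replicate 1 at day 28. Within a day, replicates 1 and 2 resembled each other, as did replicates 3 and 4 (median r 0.69, with the spots of a gene averaged). Arrays of different pairs resembled each other less (median r 0.29), and the lowest r within a day was -0.25. What sets the pairs apart is not recorded in the labels, so results are also given within each pair.

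Actin filaments grow from monomers that thymosins hold in reserve and that cofilin returns by severing old filaments. The Arp2/3 complex starts new branches on existing filaments, capping proteins stop growth at the fast-growing end, alpha-actinins bundle filaments, and focal adhesion proteins tie them to the matrix. Microtubules are polymers of alpha- and beta-tubulin pairs that start from gamma-tubulin rings, and unconventional myosins carry cargo or tension along actin. In the lung these systems serve endothelial barrier function, the migration of leucocytes, and the shape and contraction of vascular smooth muscle cells.

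Promoters of 5 members that passed over the hypoxia phase, 3 higher and 2 lower and from different families, are shown as examples from RefSeq (GRCm38.p6), from 250 bases before to 50 bases after the gene start, 5′ to 3′ on the gene's strand. Capitals mark the 5-letter cores ACGTG and GCGTG, the letters found in binding sites of hypoxia-inducible factors, on either strand (CACGT and CACGC when read in reverse). Tubb3 (chr8:123411303-123411602, plus strand), Tmsb4x (chrX:167209169-167209468, minus strand) and Myo5a (chr9:75070956-75071255, plus strand) had higher ratios and 1 match each. Actr3 (chr1:125435678-125435977, minus strand) and Lasp1 (chr11:97799315-97799614, plus strand) had lower ratios, with 3 and 5 matches, some of which share letters.
Tubb3: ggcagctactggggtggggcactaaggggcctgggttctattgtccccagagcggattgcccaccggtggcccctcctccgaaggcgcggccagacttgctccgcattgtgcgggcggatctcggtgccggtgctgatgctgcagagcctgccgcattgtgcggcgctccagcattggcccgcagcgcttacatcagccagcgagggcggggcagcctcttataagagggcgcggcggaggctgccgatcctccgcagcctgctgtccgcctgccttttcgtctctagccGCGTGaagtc
Tmsb4x: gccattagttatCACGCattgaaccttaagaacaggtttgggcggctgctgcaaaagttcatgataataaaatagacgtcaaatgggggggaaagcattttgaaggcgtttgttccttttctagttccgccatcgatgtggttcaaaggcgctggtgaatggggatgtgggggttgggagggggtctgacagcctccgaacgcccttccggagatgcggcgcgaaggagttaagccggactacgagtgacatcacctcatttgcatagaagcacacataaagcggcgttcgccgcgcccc
Myo5a: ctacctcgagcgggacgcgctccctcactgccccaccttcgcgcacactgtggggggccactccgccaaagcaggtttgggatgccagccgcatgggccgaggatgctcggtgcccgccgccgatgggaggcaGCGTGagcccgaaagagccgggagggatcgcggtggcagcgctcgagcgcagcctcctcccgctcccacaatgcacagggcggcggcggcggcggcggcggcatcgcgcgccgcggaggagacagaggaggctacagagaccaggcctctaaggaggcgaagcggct
Actr3: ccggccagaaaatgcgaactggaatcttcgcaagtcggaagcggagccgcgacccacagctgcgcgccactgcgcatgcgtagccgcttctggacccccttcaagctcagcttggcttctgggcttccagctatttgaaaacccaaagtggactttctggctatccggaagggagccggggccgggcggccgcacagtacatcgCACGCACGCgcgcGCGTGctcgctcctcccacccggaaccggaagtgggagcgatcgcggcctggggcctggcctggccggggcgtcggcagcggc
Lasp1: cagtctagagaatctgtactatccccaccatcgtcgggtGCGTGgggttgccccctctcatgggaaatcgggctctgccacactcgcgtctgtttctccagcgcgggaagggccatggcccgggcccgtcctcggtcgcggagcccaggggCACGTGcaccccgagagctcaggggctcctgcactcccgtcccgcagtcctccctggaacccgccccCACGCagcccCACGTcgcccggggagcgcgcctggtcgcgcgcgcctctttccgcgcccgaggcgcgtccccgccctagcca
Matches were found in 31 of the 38 promoters listed for members (81.6%) and in 43.8% of all 32851 promoters. The promoters of members were also richer in G and C (median 64.7% against 52.7%), and the part of base composition in the difference was not tested. By gene, 7 of the 8 higher and 5 of the 7 lower members that have a promoter entry held a match, so the letters were present on both sides.

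Over the hypoxia phase, the beta-tubulin genes Tubb3 and Tubb2b, both beta-thymosin genes and 6 of 8 unconventional myosin genes were higher in exposed lungs, by 1.12-fold to 1.41-fold. Actr3, which encodes a core subunit of the Arp2/3 complex, and Lasp1, an actin-binding focal adhesion gene, had the lowest means, each at about 0.65 of control. With limma on the 9 time-point means, 12 of the 39 members tested were higher and 8 were lower at an adjusted p of 0.05; the other 19 did not pass. Of all 12159 features tested, 42.4% passed, 24.7% higher and 17.7% lower, so the 20 of 39 members lay near the background. The median of the members was 0.08, against 0.03 for all features. All 8 lower members were below 0 at each of the 5 hypoxia days, and 9 of the 12 higher members were above 0 at each. Of the 20, 17 had the same sign in both replicate pairs and 14 passed in each pair. Among all 39 members tested, 27 had the same sign in both pairs. The 20 were called on these same day means and arrays. Neither their signs by day nor the agreement of the pairs is therefore independent support. The share of all called features with 1 sign at each hypoxia day is not given. With 1 day or 1 replicate left out, the adjusted p reached 0.24 for Actr8, 0.41 for Arpc5l, 0.081 for Myo1e, 0.54 for Tnnt1 and 0.18 for Zyx.

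**Figure D1:**
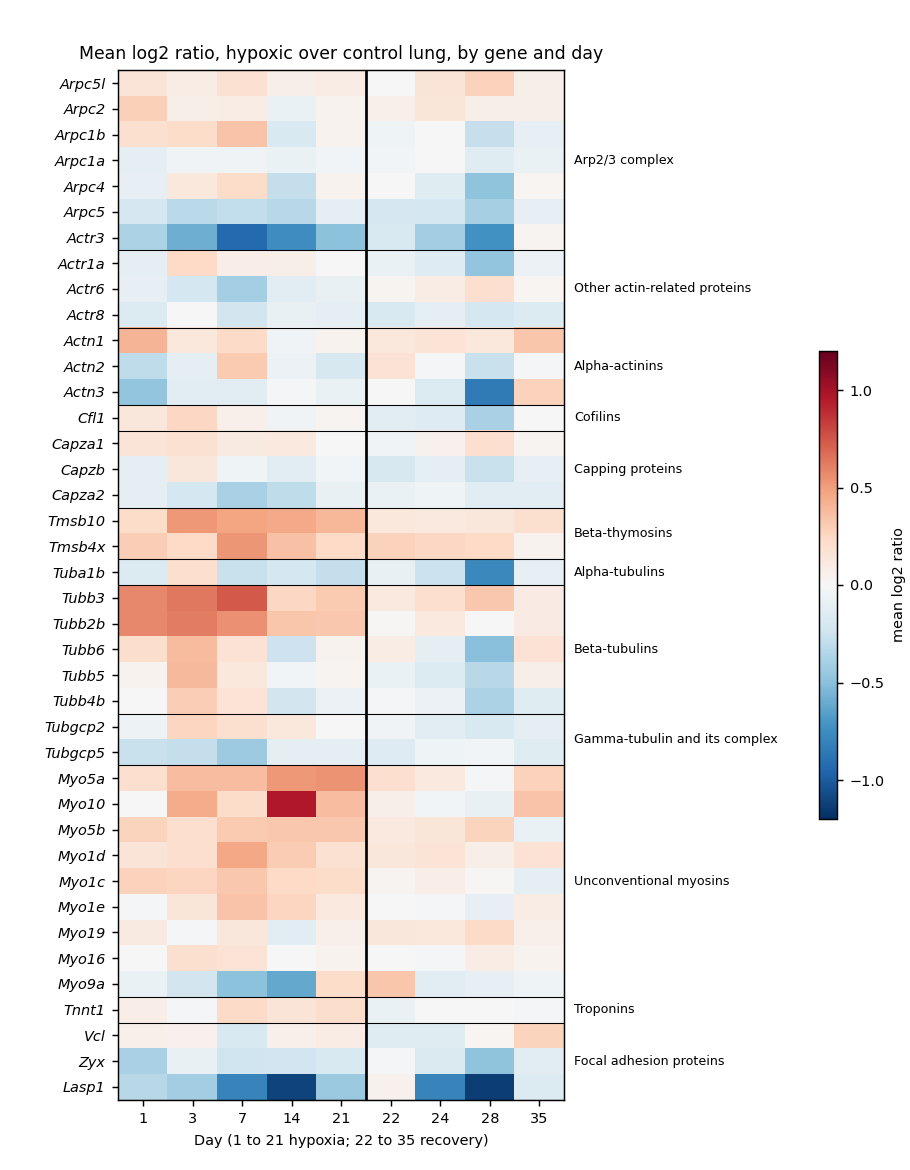
Mean log2 ratio of exposed over control lung for the 40 genes (rows, grouped by family) at each of the 9 days (columns; the vertical line divides hypoxia from recovery). Colour gives the mean of the arrays with a value; red rows at days 1 to 21 include Tubb3, Tubb2b, Tmsb10 and Myo5a, blue rows Actr3 and Lasp1, and Myo9a rests on 1 array at several days.

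Both genes for the monomer-holding beta-thymosins were higher. Tmsb10 stood at 0.49, 0.40, 0.58 and 0.59 on the 4 arrays of day 3, and at 0.53, 0.52, 0.49 and 0.37 at day 7. Over the 5 hypoxia days its mean was 0.41 ± 0.12 (SD over time points, n = 5; SE 0.045; limma adjusted p = 0.00015), and all hypoxia day means (0.22 to 0.52) lay above all recovery day means (0.12 to 0.20). Tmsb4x, the abundant thymosin of leucocytes and platelets, had its highest day mean at day 7, with 0.70, 0.75, 0.40 and 0.27. Its phase mean was 0.33 ± 0.12 (n = 5; adjusted p = 0.00063), and its 2 replicate pairs gave 0.39 and 0.27. Cfl1, which severs filaments, did not pass over the phase (0.09 ± 0.11, adjusted p = 0.22), although it passed at day 3, with 0.19, 0.38, 0.13 and 0.29.

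The 7 measured genes of the Arp2/3 complex split. Actr3 gave -1.08, -1.21, -0.82 and -0.60 at day 7 and -0.51, -0.45, -0.28 and -0.29 at day 1, below 0 on all 20 arrays of the phase. Its mean was -0.62 ± 0.21 (n = 5; SE 0.097; limma adjusted p = 0.00067), with -0.76 in replicates 1 and 2 and -0.49 in replicates 3 and 4. Arpc5, which encodes the p16 subunit, fell less, to -0.25 ± 0.09 (adjusted p = 0.0020). Its spots gave -0.38, which passed, and -0.11, with an adjusted p of 0.051. Its close relative Arpc5l, which can take the same place in the complex, was higher at 0.12 ± 0.05 (adjusted p = 0.0495). That call rested on 1 replicate pair: Arpc5l stood at 0.27 in replicates 1 and 2 and at -0.04 in replicates 3 and 4 (adjusted p = 0.61). The remaining subunit genes, Arpc1a, Arpc1b, Arpc2 and Arpc4, lay between -0.06 and 0.12 and did not pass. Tested by spot with limma, 1 spot of Arpc2 passed at 0.19 (adjusted p = 0.013), and its other spot stood at -0.02. Likewise 1 spot of Arpc1a passed at -0.12 (adjusted p = 0.028), and its other spot stood at -0.01. Of the other actin-related proteins, which act outside that complex, Actr6 (-0.19 ± 0.13, adjusted p = 0.011) and Actr8 (-0.12 ± 0.08, adjusted p = 0.033) were lower; both encode subunits of nuclear chromatin remodelling complexes. Actr8 stood at -0.01 in replicates 1 and 2 and at -0.22 in replicates 3 and 4, and Actr6 at -0.13 and -0.25, where the first pair missed the threshold in both genes. Actr1a, the dynactin filament gene, did not pass (0.06).

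Among the capping protein genes, Capza2, an alpha subunit, fell to -0.22 ± 0.13 (n = 5; limma adjusted p = 0.0032), with -0.50, -0.48, -0.33 and -0.25 at day 7. Its 2 spots gave -0.35 and -0.10, and the second alone did not pass (adjusted p = 0.11). The other alpha subunit gene, Capza1, was measured at 0.11 (adjusted p = 0.058), with spots at 0.25 and 0.02, and the beta subunit gene Capzb at -0.04. The phase called no alpha-actinin gene higher or lower. Actn1, the non-muscle bundler with the lowest p of the family, had a mean of 0.15 (adjusted p = 0.060), made of 0.30 in replicates 3 and 4 and 0.00 in replicates 1 and 2. Of its spots, 1 passed alone in limma's test at 0.28 (adjusted p = 0.0040), and the others stood at 0.17 and -0.003.

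Lasp1 reached its lowest hypoxia values at day 14, where the arrays gave -1.09, -0.53, -1.24 and -1.58. The phase mean was -0.62 ± 0.33 (n = 5; SE 0.15; limma adjusted p = 0.0065), and both replicate pairs were close, at -0.65 and -0.59. Zyx, which encodes the focal adhesion sensor zyxin, had a mean of -0.23 ± 0.11 (adjusted p = 0.011), but the arrays did not agree. Zyx stood at -0.46 in replicates 3 and 4 (adjusted p = 2.4e-05) and at 0.01 in replicates 1 and 2 (adjusted p = 0.97). At day 7, for example, its values were 0.00, -0.02, -0.49 and -0.45. Vcl, the vinculin gene, was at 0.01 over the phase; it was lower at day 7 (-0.19) and higher at day 35 (0.27).

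**Figure D2:**
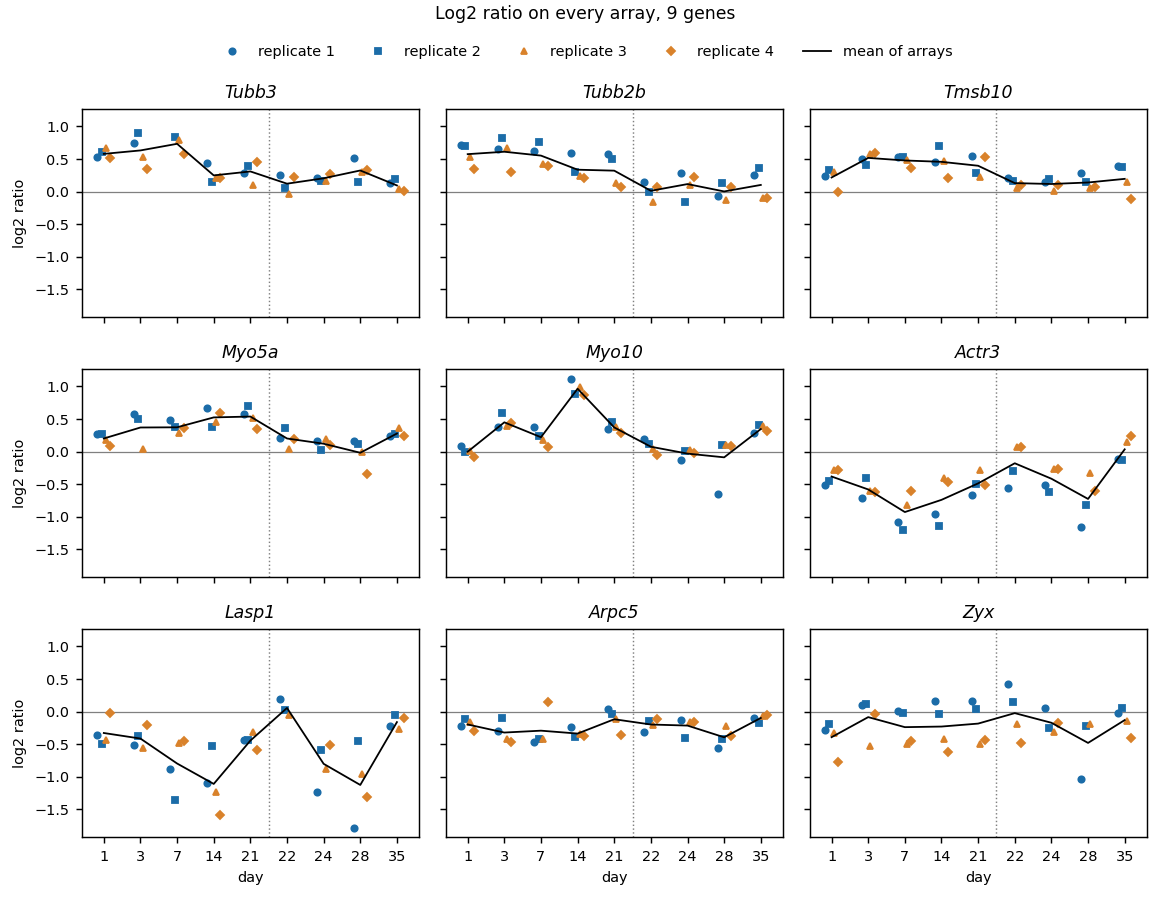
Log2 ratio on every array against day for 9 genes, with replicates 1 and 2 in blue, replicates 3 and 4 in orange, the mean as a line, and a dotted line between hypoxia and recovery. Actr3 is below 0 on every hypoxia array, Myo10 peaks at day 14, and the 2 colours separate in Zyx.

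All 8 unconventional myosin genes tested had a positive hypoxia mean, as did 6919 of all 12159 features. Of the 8, 6 passed, beside 24.7% of all features higher. Their median was 0.26, against 0.03 for all features. Myo5a, a carrier of vesicles along actin, had day means from 0.20 at day 1 to 0.54 at day 21, where its arrays gave 0.58, 0.70, 0.52 and 0.35. Its mean was 0.40 ± 0.14 (n = 5; SE 0.056; limma adjusted p = 0.00037). Its relative Myo5b, a motor of recycling endosomes, was steadier, with day means from 0.20 to 0.33 and a phase mean of 0.29 ± 0.05 (adjusted p = 0.00093). Myo10, the motor of filopodium tips, did not follow either: its 4 arrays lay between -0.09 and 0.08 at day 1 and at 1.12, 0.88, 1.00 and 0.86 at day 14. No other member had a higher single-day mean than the 0.96 of Myo10 at day 14, a 1.95-fold ratio, and both its spots were high there (1.02 and 0.91). Over the phase Myo10 averaged 0.40 ± 0.36 (adjusted p = 0.010), and 0.26 without day 14. Its spots gave 0.53 (adjusted p = 0.0011) and 0.27, which did not pass (adjusted p = 0.13). The class I myosins, which link membrane to actin, were higher too: Myo1c at 0.27 ± 0.04 (adjusted p = 0.00050), Myo1d at 0.26 ± 0.13 (adjusted p = 0.0015) and Myo1e at 0.17 ± 0.14 (adjusted p = 0.019). Myo1c differed in size between replicate pairs (0.39 and 0.14), and Myo1e came from a spot at 0.28 and another at 0.06. Myo16 (0.08) and Myo19 (0.03), a mitochondrial motor, did not pass, and Myo9a had values on 14 arrays and was tested only at day 3 (-0.22, adjusted p = 0.17).

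The beta-tubulin genes were all above 0 over the phase, as were 6919 of all 12159 features. Of the 5, 2 passed, beside 24.7% of all features higher. Tubb3, known as the neuronal isotype, gave 0.53, 0.61, 0.66 and 0.51 at day 1 and 0.84, 0.79 and 0.57 on the 3 arrays with a value at day 7. Its mean was 0.50 ± 0.21 (n = 5; SE 0.067; limma adjusted p = 0.00033), a 1.41-fold ratio. Tubb2b, another isotype best known from developing brain, gave 0.72, 0.70, 0.53 and 0.35 at day 1. Its mean was 0.48 ± 0.14 (adjusted p = 0.00015), larger in replicates 1 and 2 (0.63) than in replicates 3 and 4 (0.33). Both isotypes were highest in the first week and lower at days 14 and 21, at 0.25 and 0.31 for Tubb3 and 0.34 and 0.32 for Tubb2b. The widely expressed isotype genes Tubb5 (0.11), Tubb6 (0.11) and Tubb4b (0.04) did not pass over the phase, but Tubb5 (0.39) and Tubb6 (0.38) passed at day 3. Tubb4b stood at 0.26 in replicates 1 and 2 and at -0.19 in replicates 3 and 4, each past the threshold in its own pair and opposite in sign. Tuba1b, the measured alpha-tubulin gene, had the same split, at 0.23 and -0.47, and a phase mean of -0.14 (adjusted p = 0.24). Tubulin genes are close in sequence, so a spot can bind transcripts of several, and their separate values are uncertain to that degree. Of the 7 spots named Tubb5, 1 stood at 0.43 over the phase (adjusted p = 0.00050) and 6 between -0.05 and 0.14.

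**Figure D3:**
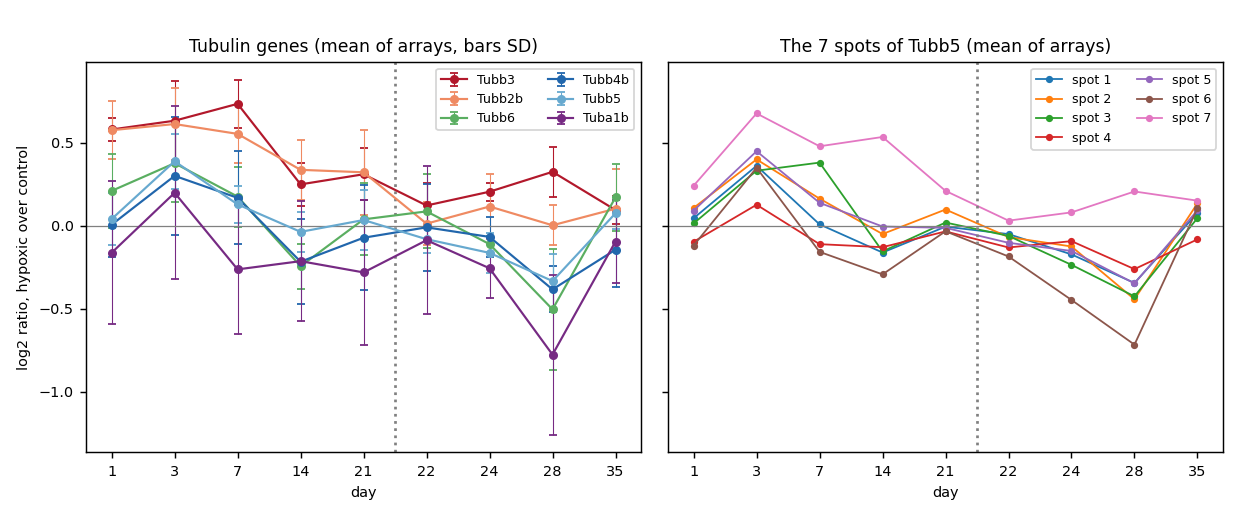
Left, mean log2 ratio by day for 6 tubulin genes (bars, SD over the arrays of the day); right, the mean of each of the 7 Tubb5 spots. Tubb3 and Tubb2b are above the other genes at days 1 to 7. Spot 7, at 0.43 over the hypoxia days, is above the other 6 spots at all 9 days. The margin is small at day 35 (0.150 against 0.135).

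In the gamma-tubulin complex, from which microtubules start, Tubgcp5 was lower at -0.24 ± 0.14 (n = 5; limma adjusted p = 0.0029), with -0.65, -0.50, -0.21 and -0.37 at day 7. Tubgcp2, another subunit gene, was at 0.10 and did not pass (adjusted p = 0.11). Tnnt1, the slow skeletal muscle troponin T gene, had a mean of 0.13 ± 0.10 (adjusted p = 0.029). It stood at 0.32 in replicates 1 and 2 and at -0.05 in replicates 3 and 4 (adjusted p = 0.61), and no single day passed. At day 3 the 4 arrays gave 0.31, 0.59, -0.81 and -0.19, on both sides of 0. Of the cardiac and skeletal muscle markers, 2 of 38 listed were measured, Mylpf at -0.32 and Nppb at -0.07, and neither passed over the phase; by day, 1 of them was lower at day 1 and at day 14 and 1 was higher at day 22 (0.88).

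**Figure D4:**
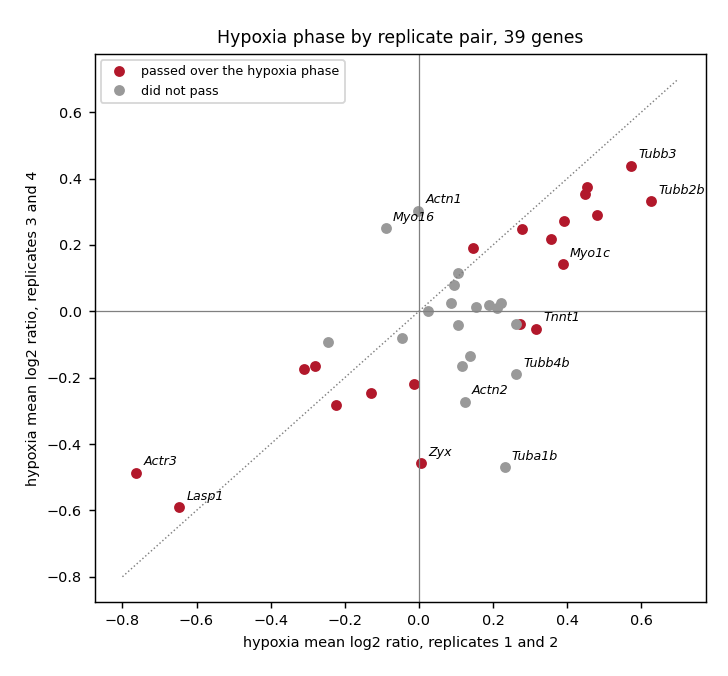
Hypoxia-phase mean of each of 39 genes in replicates 1 and 2 (horizontal) against replicates 3 and 4 (vertical), as log2 ratios; red points passed with all arrays and the dotted line marks equality. Tubb3, Tubb2b, Actr3 and Lasp1 lie far from 0 in both pairs, whereas Zyx is at 0.01 and -0.46, and Tuba1b at 0.23 and -0.47.

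The single days differed in how many members passed, as they did for all features. Days 1, 3, 7, 14 and 21 had 8, 13, 13, 10 and 6 members higher, beside 10.6%, 13.3%, 20.4%, 15.5% and 2.22% of all features. The same days had 3, 6, 7, 5 and 1 members lower, beside 9.04%, 9.95%, 15.5%, 12.2% and 2.3%. Of 39 members (40 at day 3), the share higher was above the background at each of these days, with 6 of 39 at day 21, a day on which few features passed. Those 6 were Myo5a, Tmsb10, Myo10, Myo5b, Tubb2b and Tubb3, and the 1 lower member was Actr3. Tubb3 passed at 6 days, 5 of hypoxia and day 28. Actr3 was lower at 7 of the 9 days, all but days 22 and 35. Tubb2b, Tmsb10, Myo5b, Myo5a and Myo10 passed at 5 days each, the first 2 at each hypoxia day and at no recovery day. Single arrays weighed on these counts. Without any 1 replicate, 5 or 6 members passed at day 1, against 11. At day 3, 11 passed without replicate 1 and 11 without replicate 2, against 19. At day 21, 2 passed without replicate 1, 2 without replicate 2 and 3 without replicate 4, against 7.

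At day 1 the members with the highest passing ratios were Tubb3 (0.58), Tubb2b (0.57) and Actn1 (0.40), whose arrays gave 0.25, 0.15, 0.66 and 0.55. Arpc2, a subunit gene of the Arp2/3 complex, was higher that day on each array, at 0.28, 0.33, 0.18 and 0.35. Actn3, the fast muscle alpha-actinin gene, was the lowest, at -0.53, -0.41, -0.21 and -0.74. Of the 2 cardiac and skeletal muscle markers measured that day, 1 was lower at -1.14, and its part in the ratio of Actn3 was not tested. At day 7 Myo1d gave 0.43, 0.56, 0.36 and 0.51, higher than on its other days, and Actr6 gave -0.25, -0.29, -0.53 and -0.55. These values did not cross 0 on any array of their day. For Tubb3, Tubb2b, Actn1 and Actn3 at day 1 that was a condition of being named, so it is not a result.

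Fewer members passed over the recovery phase than over the hypoxia phase, but the count depended on array scaling. Over the recovery phase 0 members were higher and 1 was lower in limma's test, beside 1.65% and 3.12% of all features. At an unadjusted p under 0.05 the counts were 8 and 9 of 39, against 14 and 8 over the hypoxia phase. With arrays centred and scaled to equal spread, 17 members passed, 7 higher and 10 lower, as against 17 over the hypoxia phase with the same scaling. Shares of all features at an unadjusted p or with scaled arrays are not given here or below. These counts therefore do not show whether the members differ from other features. The member that passed was Arpc5, at -0.23 ± 0.12 (SD over time points, n = 4; adjusted p = 0.045), nearly its hypoxia value of -0.25. That call was lost, and 0 members passed, when any 1 of days 22, 24 or 28 was left out, or any 1 of days 1, 3 or 14, which share the estimate of spread. It was also lost without replicate 4 (0 members) and without replicate 2, where Tuba1b passed in its place. Without day 35, and likewise without day 7, 3 members passed, and without replicate 1 or replicate 3, 2 passed, Arpc5 among them each time. Actr3 (-0.32) and Lasp1 (-0.51) kept low recovery means that did not pass (adjusted p = 0.086 and 0.085). Lasp1 moved most among days: 0.19, 0.03 and -0.06 on the 3 arrays of day 22, then -1.23, -0.59, -0.88 and -0.51 at day 24 and -1.78, -0.46, -0.96 and -1.31 at day 28. At day 22 no member passed, beside 1.56% of features, and 6 of 39 had an unadjusted p under 0.05. At day 24 the 2 that passed, of 39 and beside 2.87% of features, were Lasp1 and Actr3; without replicate 1 and without replicate 3, 0 passed, and 1 passed without replicate 2 or replicate 4. At day 35 the 4 that passed, beside 3.16%, were Myo10 (0.28, 0.40, 0.39 and 0.31), Actn1, Myo5a and Vcl, all higher; leaving out replicates 1, 2, 3 and 4 in turn left 1, 1, 0 and 2.

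The difference between the phases was tested directly, and no member passed in limma's test, as for nearly all features (0.0329% passed). At an unadjusted p under 0.05, 14 of 39 members differed, 13 with the higher value in hypoxia, and 1, Tubb2b, passed the adjusted test without day 21. The share of all features at the unadjusted threshold is not given, so the 14 cannot be called particular to the members. Tubb2b had the largest difference, from 0.48 to 0.06, which is 0.42 (SE 0.075; adjusted p = 0.095). In 4 members the hypoxia and recovery day means did not overlap, beside 5.71% of all features. Tubb2b, Myo1c (0.27 and 0.00) and Tmsb10 (0.41 and 0.15) were above their recovery days, and Actr6 (-0.19 and 0.08) was below. For these last 3 the adjusted p of the difference was 0.098, 0.12 and 0.14. Cfl1 (0.09 and -0.17) changed sign between phases without passing in either. Other members did the same, among them Arpc1b (0.12 and -0.11) and Tubb5 (0.11 and -0.13). From day 21 to day 22, the first recovery day, no member passed either, beside 0.609% of features, and 7 of 39 had an unadjusted p under 0.05. The point estimates of Myo5a (-0.34), Tubb2b (-0.31), Myo10 (-0.30) and Tmsb10 (-0.27) were below 0 and that of Lasp1 was 0.50 above (adjusted p between 0.28 and 0.90 for these 5).

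**Figure D5:**
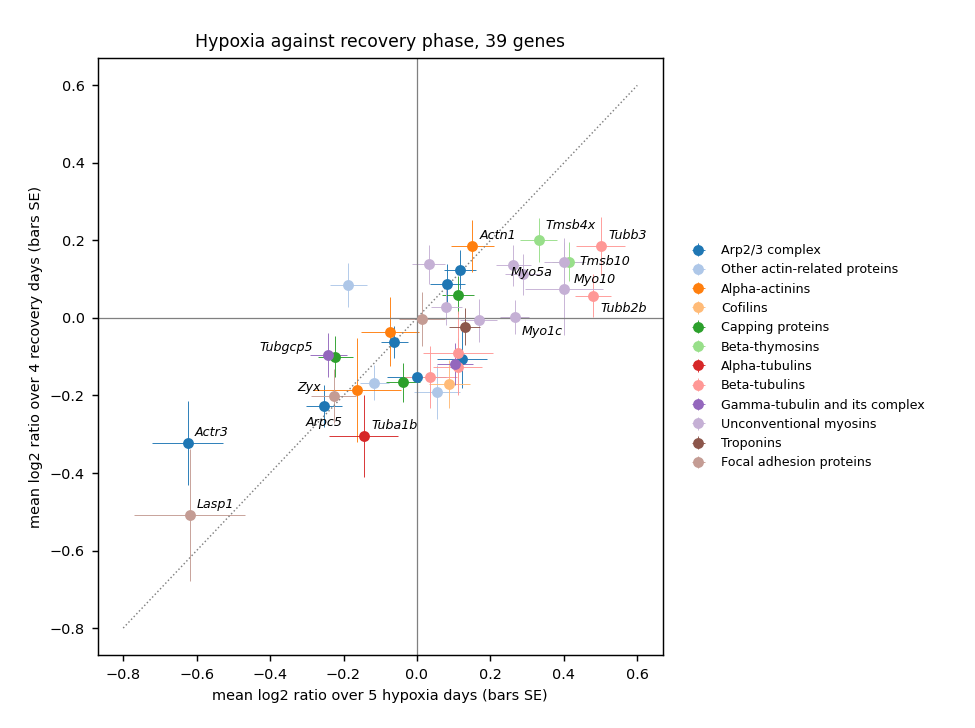
Mean log2 ratio over the 5 hypoxia days (horizontal) against the 4 recovery days (vertical) for 39 genes, coloured by family, with bars of 1 SE; the dotted line marks equal values. Tubb2b moves from 0.48 to 0.06, while Arpc5 stays at -0.25 and -0.23.

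Day 28 differed from the other recovery days. There 6 members were higher and 14 lower of 39, beside 18.6% and 13.5% of all features. Of the 7 Arp2/3 genes, 5 were lower, led by Actr3 (-1.15, -0.82, -0.33 and -0.60) and Arpc4 (-0.93, -0.23, -0.24 and -0.53), and Arpc5l was higher at 0.28. The beta-tubulin genes separated: Tubb3 was higher (0.51, 0.15, 0.30 and 0.33), while Tubb6 (-1.03, -0.32, -0.21 and -0.47), Tubb4b (-0.38) and Tubb5 (-0.33) were lower, the last with 6 of its 7 spots between -0.72 and -0.26 and the spot that was high in hypoxia at 0.21. Tuba1b gave -1.38, -0.26, -0.56 and -0.92. Cfl1 gave -0.93, -0.24, -0.11 and -0.27, and Actn3 -2.16, -0.60, -0.14 and -0.48. In Lasp1, Actr1a, Actr3, Arpc4, Tubb6, Tubb4b, Tubb5, Tuba1b, Cfl1 and Actn3, replicate 1, the array whose ratios spread most, was the lowest. Without it 9 of the 36 members still tested passed, all among the 20. They were Lasp1 (-0.91), Actr3 (-0.59), Actn3 (-0.41), Arpc5 (-0.34), Arpc4 (-0.34), Tubb6 (-0.33), Tubb5 (-0.27), Cfl1 (-0.20) and, higher, Tubb3 (0.26). Zyx, 1 of the 20, had too few arrays left to be tested, and the share of all features without that array is not given. Myo10 had 2 spots that disagreed that day, at 0.35 and -0.53, and the second had an SD of 0.89 over its 4 arrays.

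Genes of the surrounding pathways were taken from 3 lists. They too were drawn up with results of these data known, and their counts read against 24.7% of features higher and 17.7% lower over the hypoxia phase. Of 10 measured non-muscle actins, tropomyosins and myosin II chains, 7 were higher and 0 lower (median 0.20), among them the myosin light chain gene Myl6 (0.45), the gamma-actin gene Actg1 (0.34), Myl9 (0.30) and the heavy chain gene Myh9 (0.21); the beta-actin gene Actb was at 0.06 and did not pass. No gene of this list had a mean below 0, beside 5240 of all 12159 features. Of 30 other actin-binding genes, 9 were higher, such as the filamin gene Flna (0.42) and the cortactin gene Cttn (0.33). The 8 lower ones included Pdlim7 (-1.31), the capping and monomer-binding gene Twf1 (-0.65) and the severing genes Dstn (-0.37) and Gsn (-0.29). Of 23 microtubule-associated and tubulin-folding genes, 4 were higher, including the tubulin cofactors Tbcd (0.41) and Tbcb (0.36), and 6 lower, including the chaperonin subunit gene Tcp1 (-0.35) and the light chain 3 gene Map1lc3b (-0.25). In recovery these 3 lists had 0 or 1 gene past the threshold in each direction, beside 1.65% of all features higher and 3.12% lower.

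Markers of several cell types moved over the same days, and their part in the members' ratios was not tested. Of the leucocyte markers 5 of 21 were measured, with Cybb (-0.62) and Ptpn6 (-0.28) lower and Cyba (0.22) higher (median -0.24, range -0.62 to 0.22). Of the smooth muscle markers 4 of 12 were measured, with Cald1 (0.38), Smtn (0.23) and Mylk (0.16) higher. Endothelial markers (5 of 16 measured) ran from -0.66 for Ednrb to 0.66 for Emcn, with 3 higher and 1 lower. Red cell markers (6 of 18) had a median of 0.65 with 4 higher, alveolar and airway markers (4 of 15) a median of 0.16 with 2 higher, and multiciliated cell markers (7 of 23) a median of -0.02 with 2 higher and 1 lower. In recovery the leucocyte median was -0.07 with 2 lower, and the smooth muscle median was -0.02 with 1 lower. At day 28 the leucocyte median was -0.20 and the red cell median -0.42, with 2 and 4 markers lower. The red cell median was 0.89 at day 22 and 1.06 at day 35, with 4 markers higher at each, and 0.07 at day 24.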

How the data were processed

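Lung RNA of exposed and control pools was labelled with Cy5 and Cy3 and co-hybridised to spotted arrays, per the labels' protocols. The authors deposited log2 ratios of median intensities from GenePix Pro 4.0, after background correction, removal of flagged spots and lowess normalisation, per the labels. Gene names came from the platform's annotation; all 40 members matched RefSeq by Entrez ID.

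Spots sharing 1 symbol were averaged. Phases were tested with limma 3.58.1 (R 4.3.3) on the 9 time-point means, with at least 2 arrays per day, and single days on the 36 arrays, with at least 3. Benjamini-Hochberg adjustment ran over all features tested, at 0.05. A probe's low or saturated signal is not shown by a ratio, so spots were not weighted by signal. Precision was taken from limma's estimate of the spread between time-point means or arrays.

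The members and all gene lists were chosen with earlier results of these data known. The result of 1 further gene list is not reported here. Named with values were members past the threshold over a phase, between phases or from day 21 to 22, up to 3 members per direction and day with 1 sign on all arrays, and the lowest-p member of any family left; other members were named after their values were seen.

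On simulated data, log2 shifts of 0.5 were planted in 200 of 7000 genes. The fit recovered 98% for the hypoxia phase, 97% for the recovery phase and 89% for their difference. It recovered 86.3% of 197 at day 7 and 50% of 198 from day 21 to day 22. Smaller shifts were not simulated, and the largest member difference between phases was 0.42 (Tubb2b). The simulated arrays also held no replicate pairs, so these shares do not give the power for the members. Alternatives were array centring and scaling, each spot on its own, array minimums, each replicate pair, each replicate or day left out, and a replicate block. Same-numbered arrays were not treated as pairs, since their deviations from day means did not correlate at all pairs of days (median r 0.38, lowest -0.12, 127 of 144 over 0.1).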

Additional observations from a re-analysis of the deposited data

Results flagged for a closer look

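In 3 of 158 groups of 4 or 5 values checked, 1 value lay far from the others by Dixon's criterion, which chance alone passes in about 1 group in 20. Arpc5 at day 7 gave -0.47, -0.43 and -0.43 on 3 arrays and 0.15 on replicate 4. Arpc5 at day 24 gave -0.13, -0.16 and -0.16, and -0.40 on replicate 2. Myo10 at day 28 gave 0.10, 0.10 and 0.09, and -0.65 on replicate 1, the array with the widest spread of ratios.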

How the results depend on the processing

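The hypoxia phase kept 17 to 21 members past the threshold with 1 replicate left out, against 20, and no other alternative moved that count by over 1.5 times. Of the 20 genes, 14 passed under every alternative that averages the spots of a gene; Actr6, Actr8, Arpc5l, Myo1e, Tnnt1 and Zyx did not. With each spot on its own, 1 spot each of Arpc5, Capza2, Myo10 and Myo1e did not pass. Conversely, 1 spot each of Actn1, Arpc1a, Arpc2, Capza1 and Tubb5 passed although the mean of the gene's spots did not. The sign turned in 3 cases: Arpc5l (-0.039) and Tnnt1 (-0.052) in replicates 3 and 4 alone, and Zyx (0.0059) in replicates 1 and 2 alone. The cause was not tested.

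In the recovery phase 1 member passed, against 2 with median centring, 17 with arrays centred and scaled (7 higher, 10 lower), 5 in replicates 1 and 2, 4 in replicates 3 and 4, 2 with at least 3 arrays at each day, 3 without day 7, 3 without day 35, 0 without day 1, 3, 14, 22, 24 or 28, 2 without day 28 replicate 1, and 0 to 2 with 1 replicate left out. For the difference of phases, 0 became 1 in replicates 1 and 2 and 1 without day 21. With the replicate number as a block over arrays, which share a number and no recorded source, 22 members passed in recovery (10 higher, 12 lower) and 15 for the difference of phases (13 higher, 2 lower); that fit counts arrays of the same pools as separate samples. In that check 16 of 36 arrays were most like their own number.

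With arrays centred and scaled, 9 members passed at day 14 (15 otherwise), 1 at day 22 (0), 9 at day 24 (2) and 9 at day 35 (4). Replicates 1 and 2 alone gave 4 at day 1 (11), 1 at day 22, 1 at day 24 and 1 at day 35; replicates 3 and 4 alone gave 2, 1 and 2 at days 22, 24 and 35 and 8 at day 28 (20). With 1 replicate left out, counts ran from 5 to 6 at day 1, 11 to 15 at day 3, 2 to 5 at day 21, 0 to 1 at day 24, 8 to 20 at day 28 and 0 to 2 at day 35; without day 28 replicate 1 alone, 9 passed at day 28. Ratios without intensities or dye swaps leave low signal and dye bias unmeasured.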

Other observations

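A few array spots carry a member's symbol together with others and were left out of the counts above, since their signal cannot be given to 1 gene. The spot shared by the alpha-tubulin gene Tuba1a and Gm6682 stood at 0.08 over the hypoxia days and at -0.35 over the recovery days. Of 2 spots that include the non-muscle alpha-actinin gene Actn4, the one shared with Capn12 stood at -0.53 and -0.27, and the one shared with Capn12 and Psmb6 at 0.01 and 0.03. The spot shared by Myo1h and Kctd10 stood at -0.03 and -0.30.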
